A study of Mus musculus with 9 samples.

Results

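The 30 genes described here encode enzymes and regulators of cholesterol and fatty acid synthesis. They were taken from the deposited count table by symbol, 30 of its 23453 gene symbols, with 21 sterol genes and 9 fatty acid genes kept apart throughout. Bulk RNA-seq was collected from mouse cells in 3 states, with 3 libraries each and 9 in all. EpiLCs (epiblast-like cells) were derived from naive embryonic stem cells by 48 h with Activin A, FGF2 and a serum replacement (KSR) in N2B27 medium. aEpiLCs (anterior epiblast-like cells) were EpiLCs kept for a further 24 h in N2B27 without Activin A or FGF2. Their labels call this medium basal, and the study's methods name KSR in it. pEpiLCs (posterior epiblast-like cells) were EpiLCs given Activin A and CHIR99021, an agonist of the Wnt/β-catenin pathway, for 24 h, in a medium for which the methods name KSR and no FGF2. The text used here gives no cell line for these wild-type libraries and does not say whether replicates were separate cultures, so p-values measure the spread between libraries, which may be technical. EpiLCs were also harvested 24 h earlier than the other cells, so time and medium cannot be told apart in a comparison with them. The tissue label reads embryo, although the cells were grown from stem cells in culture.

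Cholesterol is built from acetyl-CoA through mevalonate and isoprenoid units, which are joined into squalene and closed into the first sterol, and a series of enzymes then trims that sterol to cholesterol. Fatty acids are built from the same acetyl-CoA by ATP citrate lyase, acetyl-CoA carboxylase and fatty acid synthase, and are then elongated and desaturated. Both branches are transcribed under the SREBP factors, encoded by Srebf2 mainly for sterol genes and Srebf1 mainly for fatty acid genes, which bind sterol regulatory elements and E-boxes beside factors of the CCAAT box. When sterols are plentiful, INSIG proteins hold SREBP and its escort SCAP in the endoplasmic reticulum. In the early embryo cholesterol is also needed to modify and receive Hedgehog ligands, and a monounsaturated fatty acid is attached to Wnt ligands before they are secreted.

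Promoter windows are shown for the 4 members with the smallest adjusted p over the 3 comparisons among the 23 members that have a window in the RefSeq table used (assembly GRCm38.p6). Each runs from 250 bases before the annotated start to 50 after it, 5′ to 3′ on the gene's strand. Capitals mark matches, on either strand, to a sterol regulatory element (TCACNCCAC), an E-box (CACGTG, which reads the same on both strands) or a CCAAT box (CCAAT, or ATTGG on the reverse strand). The marked matches do not overlap. Ebp, the gene with the largest change, lies on the minus strand at chrX:8193463-8193762.
Ebp: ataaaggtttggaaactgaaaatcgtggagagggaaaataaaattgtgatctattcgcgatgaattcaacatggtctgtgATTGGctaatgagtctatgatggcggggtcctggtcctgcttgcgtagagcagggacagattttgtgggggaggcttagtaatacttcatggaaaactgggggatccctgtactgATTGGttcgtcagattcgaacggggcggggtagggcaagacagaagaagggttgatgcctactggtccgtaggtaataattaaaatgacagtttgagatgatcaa
Hmgcs1, on the plus strand at chr13:119690101-119690400, had the largest rise in aEpiLC.
Hmgcs1: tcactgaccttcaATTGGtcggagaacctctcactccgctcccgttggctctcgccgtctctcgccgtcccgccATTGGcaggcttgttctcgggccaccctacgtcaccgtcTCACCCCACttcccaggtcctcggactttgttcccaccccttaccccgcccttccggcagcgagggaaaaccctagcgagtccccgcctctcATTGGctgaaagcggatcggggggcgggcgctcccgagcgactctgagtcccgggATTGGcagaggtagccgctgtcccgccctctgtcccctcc
Insig1, on the plus strand at chr5:28071162-28071461, is the feedback gene of the sterol branch.
Insig1: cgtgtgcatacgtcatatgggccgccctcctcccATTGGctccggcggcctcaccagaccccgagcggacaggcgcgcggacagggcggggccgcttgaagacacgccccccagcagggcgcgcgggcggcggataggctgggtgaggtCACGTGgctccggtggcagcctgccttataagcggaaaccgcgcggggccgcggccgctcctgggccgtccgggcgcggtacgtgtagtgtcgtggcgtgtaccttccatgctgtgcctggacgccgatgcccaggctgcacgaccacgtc
Fads2, on the minus strand at chr19:10101454-10101753, stands for the fatty acid branch and holds none of the 3 motifs in this window.
Fads2: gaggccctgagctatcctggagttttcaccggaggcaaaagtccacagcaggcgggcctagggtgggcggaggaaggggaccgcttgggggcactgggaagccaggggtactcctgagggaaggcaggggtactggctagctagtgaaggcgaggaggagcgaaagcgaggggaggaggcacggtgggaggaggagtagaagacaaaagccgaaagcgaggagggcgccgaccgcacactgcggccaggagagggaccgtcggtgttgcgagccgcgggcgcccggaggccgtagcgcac

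In the Ebp window both matches were CCAAT boxes on the reverse strand, beginning 170 and 55 bases before the start. The Hmgcs1 window held a sterol regulatory element 137 bases before the start and CCAAT boxes at 237, 176 and 45 bases before it and within the 50 bases after it. That of Insig1 held an E-box 101 bases and a CCAAT box 216 bases before the start. Over the 28 windows of the 23 members, 71.4% held a CCAAT box against 37.4% of all 32817 windows in the table. An E-box was in 14.3% of members' windows and 7.15% of all windows. The stated letters of the sterol regulatory element were in 3.57% and 1.24%, and only the Hmgcs1 window among the members held them. These matches describe letters in the windows and are no evidence that a factor was bound.

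Total counts lay between 20560564 and 23417917 per library, and each of the 30 members passed the filter on low counts in each comparison. The lowest count of any member was 131, for Ebp, so depth was not the limit for these genes. Levels are given as CPM, counts scaled to library size and composition. Summed CPM of 5 posterior markers was 22.5 to 25.5 in EpiLC, 20.3 to 34.8 in aEpiLC and 844 to 2351 in pEpiLC, and that of 4 anterior neural markers was 99.2 to 116, 144 to 165 and 17.8 to 51.7. The posterior and anterior neural sums followed the state labels. Epiblast markers summed to 4438 to 4750 CPM in EpiLC, 4122 to 4343 in aEpiLC and 1810 to 3088 in pEpiLC. Dnmt3b carried much of the epiblast sum, with means of 2670, 2519 and 1256 CPM in the same order. From EpiLC to pEpiLC the means of Utf1 (464 and 76.9), Pou3f1 (202 and 32.5), Otx2 (93.9 and 70.5) and Pou5f1 (1116 and 962) were also lower. That of Fgf5 was higher (84.5 and 169). Sox2 carried much of the anterior neural sum (60.0 ± 5.07, 102 ± 3.52 and 23.7 ± 11.6 CPM, SD, n = 3, in EpiLC, aEpiLC and pEpiLC). Sox3 overlapped between EpiLC and aEpiLC (45.0 ± 6.95 and 49.7 ± 8.14), and Sox1 was low and no higher in aEpiLC (1.20 ± 0.144 and 0.969 ± 0.469). Pax6, the other member, was also low and lay higher in aEpiLC without overlap (0.558 ± 0.0822 and 1.99 ± 0.166). The part that these shifts in cell identity had in the results below was not tested. A bulk library cannot tell fewer cells of a kind from less RNA per cell. Markers of extraembryonic endoderm, which makes lipoproteins, were in the table for 5 of 8 genes and summed to at most 11.9 CPM in any library. Those of feeder fibroblasts, also 5 of 8, summed to at most 24.2 CPM. The library pEpiLC replicate 1 stood apart, since 324 and 331 of 15797 genes differed over 4-fold between it and pEpiLC replicates 2 and 3, against 66 between those 2. That library also had the highest posterior sum and the lowest anterior neural and epiblast sums of pEpiLC. In pEpiLC replicates 1, 2 and 3, T was at 1093, 206 and 222 CPM and Mixl1 at 647, 37.6 and 36.4. Nanog went the other way, at 105, 250 and 258 CPM. Some results below are also given without pEpiLC replicate 1.

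Per kilobase of annotated exon, the fatty acid genes Scd2, Fasn and Acly were the highest of the 30 in EpiLC, with mean levels of 189.5, 135 and 130.5 CPM per kb. The highest sterol gene was Hmgcs1 at 98.6 CPM per kb. At the other end were Ebp at 2.76, Tm7sf2 at 4.85 and Hsd17b7 at 5.34 CPM per kb. Replicates were close, with a median ratio of the highest to the lowest library of 1.11 over the members in EpiLC, 1.22 in aEpiLC and 1.16 in pEpiLC. The widest ratios were 1.24 for Fasn, 1.51 for Tm7sf2 and 2.07 for Hsd17b7, in the same order of states.

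The first comparison set aEpiLC, kept for a further 24 h without Activin A and FGF2, against EpiLC. Against EpiLC, aEpiLC had lower mRNA for most of the fatty acid branch and a mixed response in the sterol branch. Of the 9 fatty acid genes, 8 fell, by 0.19 to 0.40 on the log2 scale, and Fads1 did not pass the test (-0.12). Of the 21 sterol genes, 3 rose (Hmgcs1, Ebp and Sc5d), 6 fell (Fdps, Tm7sf2, Insig1, Lss, Srebf2 and Dhcr7) and 12 did not pass. The test was edgeR's quasi-likelihood test at a Benjamini-Hochberg adjusted p below 0.05 over all 15301 genes tested, where 46.6% of all genes passed, 24.0% upwards and 22.6% downwards. Against that, 88.9% of the fatty acid genes passed downwards, and 14.3% and 28.6% of the sterol genes passed upwards and downwards. None of the 30 changed 2-fold, while 12.5% of all genes passed with such a change. The libraries of the 2 states did not overlap for 9 of the sterol and 8 of the fatty acid genes, and for 56.1% of all genes. The median log2 fold change was -0.39 over the fatty acid genes, 0.02 over the sterol genes and 0.00 over all genes. With all 9 libraries in 1 fit, 5 of the 9 fatty acid genes passed, Scd2, Elovl6 and Srebf1 being lost, and 7 of the sterol genes, Lss and Dhcr7 being lost, while 35.5% of all genes passed.

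The second comparison set pEpiLC, in Activin A with CHIR99021, against EpiLC, in Activin A with FGF2. In pEpiLC the sterol branch was lower than in EpiLC at most of the steps that passed the test, and 1 gene, Ebp, rose far more than any other member moved. Of the 21 sterol genes, 10 fell, by 0.29 to 0.79, and 3 rose (Ebp, Sc5d and Acat2). Among the 9 fatty acid genes, Fads2, Acly and Fasn fell and Scd2 rose. In the same test 44.2% of the 15288 genes tested passed, 22.8% upwards and 21.4% downwards, and 15.8% passed with a 2-fold change, which among the members only Ebp reached. Libraries did not overlap for 13 sterol and 6 fatty acid genes and for 58.6% of all genes. Of the sterol genes 47.6% passed downwards, and of the fatty acid genes 33.3%. The median log2 fold change was -0.27 over the sterol genes, -0.19 over the fatty acid genes and 0.02 over all genes. Without pEpiLC replicate 1 the counts of sterol genes were the same (10 lower and 3 higher), but their median was -0.12, and 5 fatty acid genes fell. Without EpiLC replicate 3, 7 sterol genes passed, 4 of them lower, and 2 fatty acid genes. Calls over all genes moved too, to 52.6% without pEpiLC replicate 1 and 28.9% without EpiLC replicate 3.

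The third comparison, pEpiLC against aEpiLC, is the one the study made, and it shares its libraries with the other 2. Ebp and Scd2 were higher in pEpiLC, and Hmgcs1, Sqle and Fdft1 were lower. The other 17 sterol genes and the other 8 fatty acid genes did not pass. Over all 15198 genes tested 15.6% passed, 6.28% upwards and 9.30% downwards, against 4.76% and 14.3% of the sterol genes and 11.1% and 0% of the fatty acid genes. A 2-fold change with a passed test was found for Ebp alone among the members and for 7.29% of all genes. Libraries did not overlap for 10 sterol genes, 1 fatty acid gene and 39.0% of all genes. The median log2 fold change was -0.14 over the sterol genes, 0.10 over the fatty acid genes and 0.01 over all genes. Without aEpiLC replicate 3 the median of the fatty acid genes was -0.01. The plot of fold changes shows the 3 comparisons side by side.

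**Figure D1:**
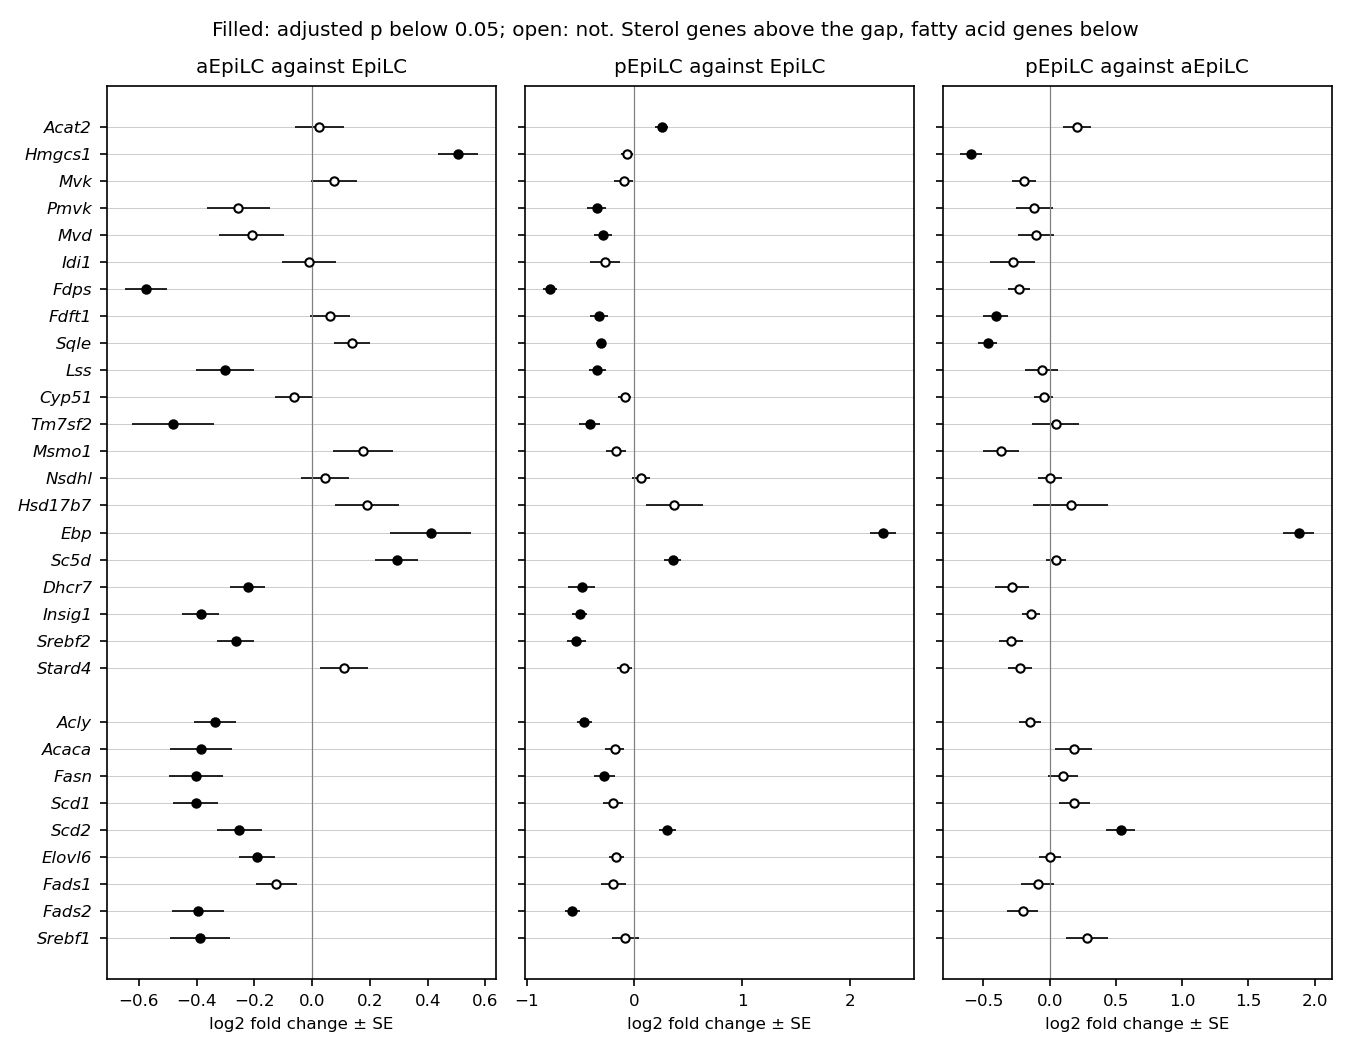
Log2 fold change ± SE of each of the 21 sterol genes (above the gap) and 9 fatty acid genes (below it) in the 3 comparisons, from fits to 3 against 3 libraries, each panel with its own horizontal scale. Filled points passed at adjusted p below 0.05, and Ebp in pEpiLC (2.31 against EpiLC and 1.88 against aEpiLC) lies far to the right of the other members.

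The first enzymes of the sterol branch condense acetyl-CoA. Hmgcs1 encodes the cytosolic HMG-CoA synthase, which joins acetyl-CoA to acetoacetyl-CoA ahead of mevalonate. Its level was 465, 434 and 459.9 CPM in EpiLC replicates 1, 2 and 3, 715, 594 and 639.6 in aEpiLC and 416, 458 and 429 in pEpiLC. All aEpiLC libraries lay above all others, and the pEpiLC libraries overlapped those of EpiLC. Hmgcs1 rose by 0.51 from EpiLC to aEpiLC (SE 0.0694, adjusted p = 5.90e-05, edgeR's quasi-likelihood test, here and below) and was lower in pEpiLC than in aEpiLC by 0.59 (SE 0.0830, adjusted p = 0.00424). In pEpiLC against EpiLC it stood at -0.06 and did not pass (SE 0.0561, adjusted p = 0.382). Hmgcs1 shares 557 bases of exon with Gm48342 on the opposite strand, which had a mean count of 21.1. Acat2, the thiolase that makes acetoacetyl-CoA, rose in pEpiLC by 0.25, with means of 156 ± 4.41 CPM in EpiLC and 187 ± 9.61 in pEpiLC (SD, n = 3), and reads may be shared with its close relative Acat3. In the fit of all 9 libraries Acat2 no longer passed.

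Of the 4 enzymes that turn mevalonate into isoprenoid units, Pmvk and Mvd passed the test, and only in pEpiLC against EpiLC. Mvk, the mevalonate kinase, did not pass in any comparison (0.08, -0.10 and -0.19 for aEpiLC against EpiLC, pEpiLC against EpiLC and pEpiLC against aEpiLC). Pmvk and Mvd, the kinase and the decarboxylase of the next steps, fell in pEpiLC by 0.35 and 0.29, and neither call held without pEpiLC replicate 3 or without EpiLC replicate 3, nor that of Mvd without EpiLC replicate 2 or in the fit of all 9 libraries. In aEpiLC they stood at -0.26 and -0.21 and did not pass. Idi1, the isomerase that balances both isoprenoid units, did not pass in any comparison.

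Fdps, which joins isoprenoid units into farnesyl diphosphate, the branch point between sterols and other isoprenoids, fell in both later states. It had 330.5, 359 and 369 CPM in EpiLC, 264, 218 and 235 in aEpiLC and 203, 217 and 195 in pEpiLC. Each EpiLC library was above each library of the later states. The fall was 0.58 in aEpiLC (SE 0.0740, adjusted p = 3.37e-05) and 0.79 in pEpiLC (SE 0.0667, adjusted p = 0.000209), which left 0.671 and 0.580 of the EpiLC level. Between pEpiLC and aEpiLC the difference of -0.23 did not pass (adjusted p = 0.113). So Hmgcs1 at the entry and Fdps at the end of this stretch moved in opposite directions in aEpiLC. Fdps shares 1124 bases of exon with Gm43738 on the same strand, which had a mean count of 2.4.

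**Figure D2:**
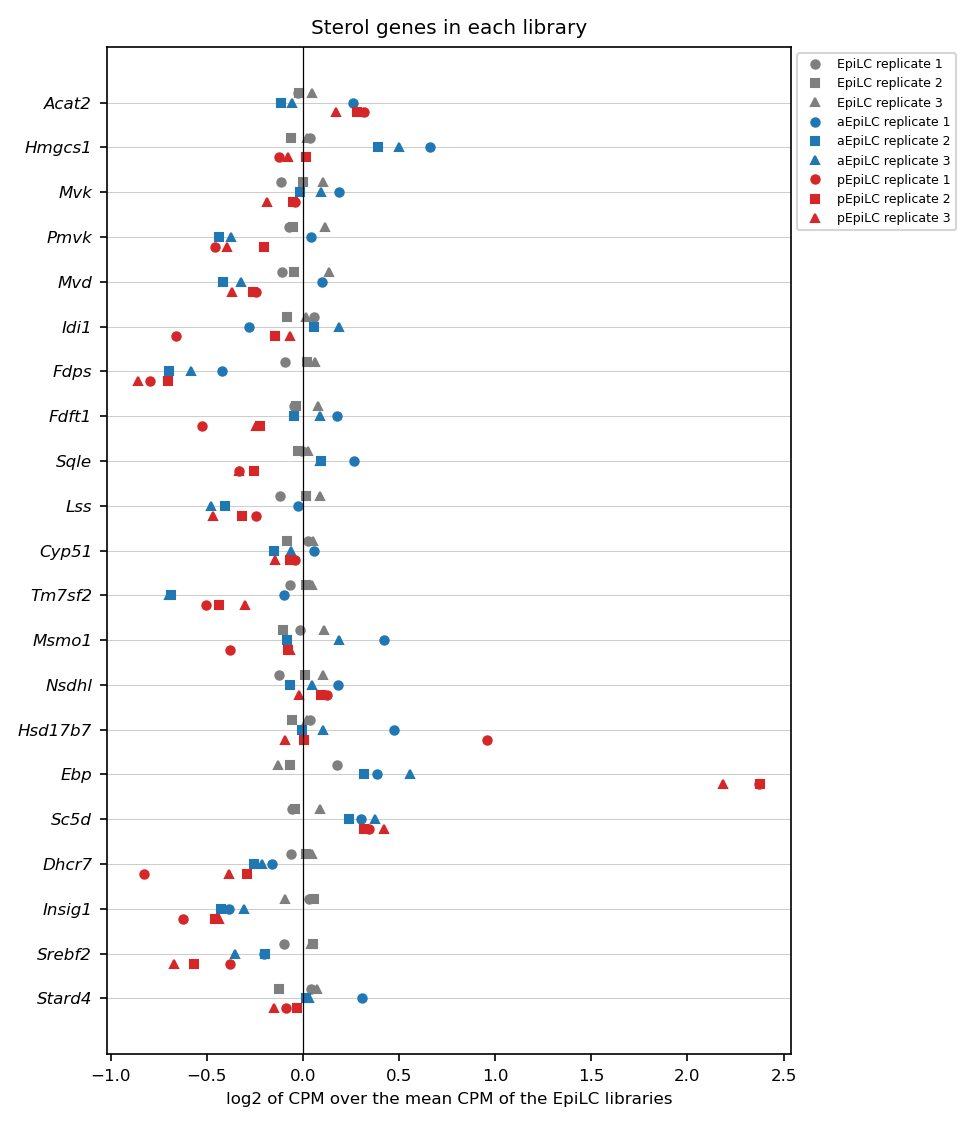
Log2 of the CPM in each of the 9 libraries over the mean CPM of the EpiLC libraries, for the 21 sterol genes in pathway order with the regulators last, with colour for state and marker shape for replicate. The pEpiLC points of Ebp sit above 2, those of Fdps below -0.5, and pEpiLC replicate 1 of Hsd17b7 lies apart from the other libraries of its state.

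Squalene synthesis and closure came next. Fdft1, the squalene synthase, had 143, 144 and 156 CPM in EpiLC, 167, 143 and 157 in aEpiLC and 103, 127 and 125 in pEpiLC. The pEpiLC libraries were the lowest, and those of EpiLC and aEpiLC overlapped. It fell in pEpiLC by 0.33 against EpiLC and was lower than in aEpiLC by 0.41 (SE 0.0968, adjusted p = 0.0291). The call against EpiLC was lost without EpiLC replicate 2 or 3, and that against aEpiLC without pEpiLC replicate 3 or any 1 of the aEpiLC libraries. Fdft1 shares 774 bases of exon with Ctsb on the opposite strand, and whether counting used strand is not stated, so its reads are uncertain.

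Sqle, the squalene epoxidase and a rate-controlling step of the branch, had 222, 219 and 227 CPM in EpiLC, 268, 238 and 237 in aEpiLC and 177, 187 and 177 in pEpiLC. The 3 states did not overlap, with aEpiLC highest and pEpiLC lowest. Sqle fell in pEpiLC by 0.31 against EpiLC and was lower than in aEpiLC by 0.47 (SE 0.0706, adjusted p = 0.00570). In aEpiLC its value of 0.14 against EpiLC did not pass (adjusted p = 0.0848). Lss, which closes the epoxide to lanosterol, fell by 0.30 in aEpiLC and 0.34 in pEpiLC. The first call was lost in the fit of all 9 libraries and without aEpiLC replicate 2 or 3 or EpiLC replicate 2 or 3, and the second without EpiLC replicate 3.

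Among the enzymes that trim lanosterol, Cyp51 (the demethylase), Msmo1 (the methyl oxidase), Nsdhl and Hsd17b7 (which complete the demethylation) did not pass in any comparison, and their fitted values ran from -0.37 to 0.37. Cyp51 shares 166 bases of exon with Akap9 on the opposite strand, so its reads are uncertain as those of Fdft1 are. The highest of these values, for Hsd17b7 in pEpiLC against EpiLC, rested on 1 library. Hsd17b7 had 52.9, 27.4 and 25.5 CPM in pEpiLC replicates 1, 2 and 3 against 27.9, 26.2 and 27.6 in EpiLC. Without pEpiLC replicate 1 its value was -0.05. Tm7sf2, a sterol reductase at an early step, had 20.4, 21.6 and 22.1 CPM in EpiLC, 19.9, 13.3 and 13.2 in aEpiLC and 15.1, 15.8 and 17.3 in pEpiLC. Its aEpiLC libraries were split, with replicate 1 just under the EpiLC range and replicates 2 and 3 well under it. Tm7sf2 fell by 0.48 in aEpiLC (SE 0.143, adjusted p = 0.0138) and by 0.41 in pEpiLC. The aEpiLC call was lost without aEpiLC replicate 2, where the adjusted p was 0.0622, and the pEpiLC call without EpiLC replicate 3. Tm7sf2 shares 532 bases of exon with Vps51 on the same strand.

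Ebp encodes the sterol isomerase that moves the double bond of the ring before the last steps, and is X-linked (chrX:8185329-8193512, minus strand). It had 7.21, 6.10 and 5.83 CPM in EpiLC, 8.35, 7.96 and 9.38 in aEpiLC and 33.1, 33.2 and 29.0 in pEpiLC. The lowest pEpiLC library was above 3 times the highest of any other state. Ebp rose by 2.31 in pEpiLC against EpiLC (SE 0.123, adjusted p = 3.63e-05), a 4.96-fold change, and was higher than in aEpiLC by 1.88 (SE 0.116, adjusted p = 0.000150), a 3.68-fold difference. Without pEpiLC replicate 1 these were 2.28 and 1.85. In aEpiLC it rose by 0.41 (SE 0.141, adjusted p = 0.0287), a call lost without aEpiLC replicate 3, EpiLC replicate 2 or EpiLC replicate 3. Per kilobase of exon Ebp was the lowest of the 30 genes in EpiLC, and in pEpiLC its mean was 13.75 CPM per kb, above Tm7sf2 at 3.65, Hsd17b7 at 6.91 and Sc5d at 8.67.

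The gene just before Ebp on the same strand also rose in pEpiLC. Porcn encodes the acyltransferase that attaches the monounsaturated fatty acid to Wnt ligands, and was looked at after the value of Ebp was seen, with the other neighbours. It lies at chrX:8193848-8206525 and ends 335 bases before the start of Ebp. Porcn had 0.231, 0.931 and 0.740 CPM in EpiLC, 0.891, 0.723 and 0.690 in aEpiLC and 5.32, 5.39 and 4.61 in pEpiLC. Its pEpiLC libraries were all above the others, at a level well under that of Ebp. Porcn rose by 2.99 in pEpiLC against EpiLC (SE 0.396, adjusted p = 0.00117) and was higher than in aEpiLC by 2.71 (SE 0.223, adjusted p = 0.000415). The other neighbours examined on that strand also rose against EpiLC, Tbc1d25 by 0.50 (adjusted p = 0.0437), Rbm3 by 0.52 (adjusted p = 0.00168) and Ftsj1 by 0.30 (adjusted p = 0.0254). Over all genes 22.8% passed upwards in that comparison. Against aEpiLC Ftsj1 passed (0.51, adjusted p = 0.0194), while Tbc1d25 and Rbm3 did not (0.50 and 0.15, adjusted p = 0.0894 and 0.240). In aEpiLC against EpiLC Rbm3 rose as well (0.35, adjusted p = 0.000307). Porcn, Tbc1d25 and Ftsj1 did not pass there (0.26, -0.01 and -0.23).

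The last enzymes of the branch moved apart. Sc5d, the desaturase that acts on the product of the isomerase, rose in aEpiLC by 0.29 and in pEpiLC by 0.36, with means of 32.8 ± 1.87, 40.6 ± 1.90 and 42.2 ± 1.63 CPM in EpiLC, aEpiLC and pEpiLC (SD, n = 3). Dhcr7, the reductase that completes cholesterol, had 106, 111 and 114 CPM in EpiLC, 98.7, 92.3 and 95.3 in aEpiLC and 62.3, 90.1 and 84.3 in pEpiLC. Neither later state overlapped EpiLC, and pEpiLC replicate 1 was the lowest library. Dhcr7 fell by 0.22 in aEpiLC and by 0.49 in pEpiLC (SE 0.126, adjusted p = 0.0167), or -0.34 without pEpiLC replicate 1. The pEpiLC call was lost without EpiLC replicate 2 or 3, and the aEpiLC call in the fit of all 9 libraries. Of the 11 genes from squalene onwards, Ebp and Sc5d were thus the only ones that rose in pEpiLC, next to each other in the pathway, while Fdft1, Sqle, Lss, Tm7sf2 and Dhcr7 fell.

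**Figure D3:**
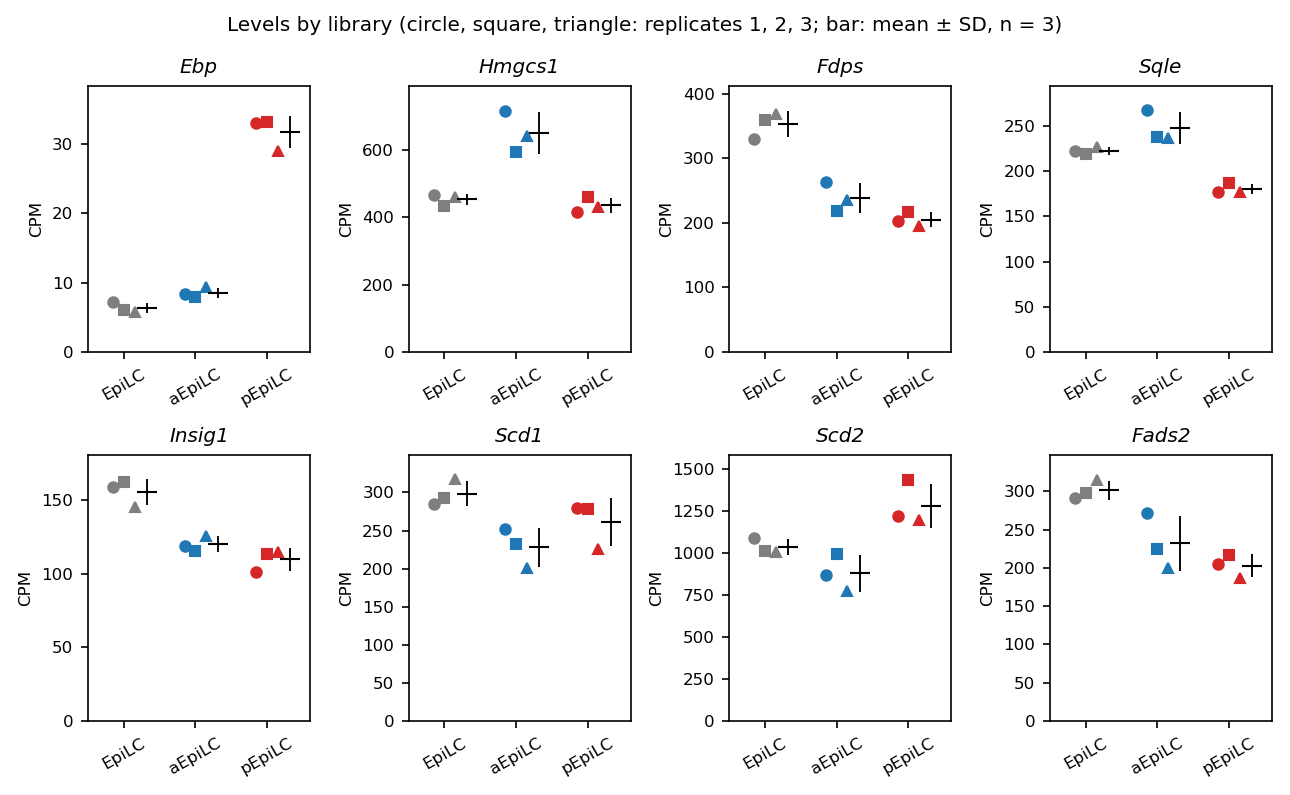
CPM in each library of 8 members, with circles, squares and triangles for replicates 1, 2 and 3 and a bar for the mean ± SD of 3 libraries. Ebp stands high in pEpiLC and Hmgcs1 in aEpiLC, Fdps, Insig1 and Fads2 are lower in both later states than in EpiLC, and Scd2 is highest in pEpiLC.

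Of the 3 genes of sterol regulation and transport, 2 fell in both later states. Srebf2, which encodes SREBP2, had 426, 473 and 469 CPM in EpiLC, 396, 397 and 357 in aEpiLC and 350.1, 307 and 287 in pEpiLC. The states did not overlap. Srebf2 fell by 0.26 in aEpiLC (SE 0.0644, adjusted p = 0.00427) and by 0.54 in pEpiLC (SE 0.0866, adjusted p = 0.00257). The difference between pEpiLC and aEpiLC of -0.29 did not pass (adjusted p = 0.0701), and it passed without pEpiLC replicate 1 (-0.37). Insig1, the feedback protein that retains SREBP and is itself an SREBP target, had 159, 162 and 146 CPM in EpiLC, 119, 116 and 126 in aEpiLC and 101, 113 and 115 in pEpiLC. All EpiLC libraries were above those of both later states. Insig1 fell by 0.39 (SE 0.0635, adjusted p = 0.000261) and 0.51 (SE 0.0697, adjusted p = 0.00137). Stard4, a sterol transfer protein, did not pass in any comparison.

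In aEpiLC and EpiLC, though not in pEpiLC, 1 library was the highest of its state for most of the sterol genes. Replicate 1 was the highest aEpiLC library for 16 of the 21 genes and replicate 2 the lowest for 16, and EpiLC replicate 3 was the highest of its state for 15. In pEpiLC replicates 1, 2 and 3 were the highest for 8, 8 and 5 genes and the lowest for 9, 1 and 11. Such ranks were not counted over all genes, so they may not be particular to the sterol genes. The median log2 ratio to the EpiLC mean was 0.18, -0.08 and 0.03 in aEpiLC replicates 1, 2 and 3, and -0.25, -0.14 and -0.19 in pEpiLC. Summed CPM of the 21 genes was 3100 to 3273 in EpiLC, 2960 to 3399 in aEpiLC and 2597 to 2740 in pEpiLC, a sum in which Hmgcs1 and Srebf2 weigh most. The aEpiLC libraries thus spanned the EpiLC range of this sum, and those of pEpiLC were all under it.

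In the fatty acid branch, Acly, the ATP citrate lyase that supplies cytosolic acetyl-CoA, had 682, 643 and 741 CPM in EpiLC, 604, 549 and 501 in aEpiLC and 492, 529 and 479 in pEpiLC. All EpiLC libraries were above those of both later states. Acly fell by 0.34 in aEpiLC (SE 0.0742, adjusted p = 0.00226) and 0.47 in pEpiLC (SE 0.0686, adjusted p = 0.00177). Acaca, the carboxylase that makes malonyl-CoA, fell by 0.39 in aEpiLC and did not pass in pEpiLC (-0.18). Fasn, the fatty acid synthase, had 1448, 1335 and 1657 CPM in EpiLC, 1218, 1221 and 957 in aEpiLC and 1314, 1250.5 and 1106 in pEpiLC. EpiLC lay above both other states, whose libraries overlapped. Fasn fell by 0.40 in aEpiLC (SE 0.0948, adjusted p = 0.00353) and by 0.28 in pEpiLC (SE 0.0966, adjusted p = 0.0485), the latter lost without pEpiLC replicate 2 or 3 or EpiLC replicate 1 or 3.

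Scd1 and Scd2 encode stearoyl-CoA desaturases, which make monounsaturated fatty acids, and in pEpiLC only Scd2 passed the test. The difference between both genes was not tested. Scd1 had 285, 293 and 318 CPM in EpiLC, 252, 232 and 201 in aEpiLC and 280.2, 278 and 225 in pEpiLC. Scd2 had 1091, 1010.2 and 1005 CPM in EpiLC, 869, 995 and 771 in aEpiLC and 1218, 1433 and 1197 in pEpiLC. For Scd1 all libraries of the later states were under EpiLC, and for Scd2 those of aEpiLC were under and those of pEpiLC over it. Scd1 fell by 0.40 in aEpiLC (SE 0.0781, adjusted p = 0.000906), and its value of -0.20 in pEpiLC did not pass (adjusted p = 0.125) but passed without pEpiLC replicate 1 (-0.25). Scd2 fell by 0.25 in aEpiLC, a call lost without EpiLC replicate 1. It rose by 0.30 in pEpiLC against EpiLC (SE 0.0776, adjusted p = 0.0160) and was higher than in aEpiLC by 0.54 (SE 0.111, adjusted p = 0.0183). The first of these was lost without EpiLC replicate 2 or 3, and the second without aEpiLC replicate 1 or 3. Both genes lie with Scd3 and Scd4 in a cluster of related genes on chromosome 19, and how far reads are shared among them was not tested.

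Elovl6, the elongase that extends the product of fatty acid synthase, fell by 0.19 in aEpiLC, a call lost without aEpiLC replicate 3 or EpiLC replicate 1 or 3, and did not pass in pEpiLC (-0.17). Fads2 and Fads1 encode the desaturases of polyunsaturated fatty acid synthesis and lie near each other on chromosome 19. Fads2 had 291, 298 and 315 CPM in EpiLC, 271, 225 and 199 in aEpiLC and 205, 216 and 187 in pEpiLC. EpiLC was the highest state and the later states overlapped. Fads2 fell by 0.39 in aEpiLC (SE 0.0904, adjusted p = 0.00293) and by 0.58 in pEpiLC (SE 0.0686, adjusted p = 0.000787). Fads1 did not pass in any comparison (-0.12, -0.19 and -0.09), and without pEpiLC replicate 1 it passed in pEpiLC against EpiLC at -0.33. Srebf1, which encodes SREBP1, fell by 0.39 in aEpiLC (SE 0.104, adjusted p = 0.00807), a call lost in the fit of all 9 libraries, and stood at -0.08 in pEpiLC without passing. It shares 109 bases of exon with Rai1 on the opposite strand.

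**Figure D4:**
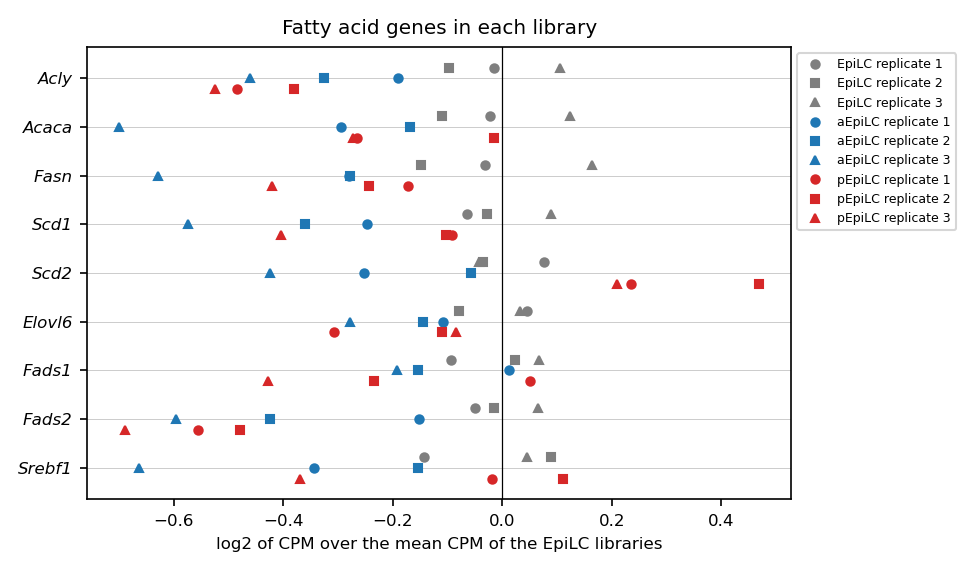
Log2 of the CPM in each of the 9 libraries over the mean CPM of the EpiLC libraries, for the 9 fatty acid genes, with colour for state and marker shape for replicate. All aEpiLC points but 1 (Fads1, replicate 1) lie left of 0, the 3 pEpiLC points of Scd2 lie right of it, and aEpiLC replicate 3 is the leftmost aEpiLC point in all 9 genes.

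The fall of the fatty acid genes in aEpiLC was uneven between libraries. aEpiLC replicate 3 was the lowest of its state for 9 of the 9 genes, and pEpiLC replicate 3 for 8. These ranks, too, were not counted over all genes. The median log2 ratio to the EpiLC mean was -0.25, -0.17 and -0.57 in aEpiLC replicates 1, 2 and 3, and -0.17, -0.11 and -0.41 in pEpiLC. Without aEpiLC replicate 3, 7 of the 9 genes still fell in aEpiLC, with a median of -0.26. Summed CPM of the 9 genes was 4293 to 4804 in EpiLC, 3157 to 3878 in aEpiLC and 3804 to 4414 in pEpiLC, so that in this sum aEpiLC did not overlap EpiLC and pEpiLC did. Fasn and Scd2 weigh most in this sum, and the overlap of pEpiLC includes the rise of Scd2. The other 8 genes had fitted values below 0 in pEpiLC against EpiLC. The replicate that was lowest for the fatty acid genes in aEpiLC was not the one that was lowest for the sterol genes.

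Other genes of these pathways were taken from 4 lists, of which 52 genes were tested in each comparison. Of 19 genes of sterol regulation and trafficking, 4 rose and 5 fell in aEpiLC, and 6 rose and 2 fell in pEpiLC, both against EpiLC. Over all genes the shares were those given above, 24.0% up and 22.6% down in aEpiLC and 22.8% and 21.4% in pEpiLC. Of 8 genes of the isoprenoid branch beyond Fdps, which makes dolichol, ubiquinone and prenyl anchors, 1 rose and 2 fell in aEpiLC and 3 rose in pEpiLC. Among 21 genes of fatty acid supply, elongation, desaturation and activation, 6 rose and 5 fell in aEpiLC and 4 rose and 6 fell in pEpiLC. Of the genes of fatty acid oxidation, Cpt1a, Acadl and Hadha rose in pEpiLC, and in aEpiLC Acadl rose and Cpt1a fell. In pEpiLC against EpiLC 25 of the 52 genes passed, and 34 without pEpiLC replicate 1, beside 44.2% and 52.6% of all genes. Between pEpiLC and aEpiLC 11 of the 52 passed, and without pEpiLC replicate 1 it was 15 of 53 genes tested, beside 15.6% and 21.6% of all genes.

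Cpt1a, which lets fatty acids into mitochondria for oxidation, changed in each of the 3 comparisons. It had 11.3, 15.5 and 13.8 CPM in EpiLC, 4.31, 3.12 and 3.73 in aEpiLC and 28.3, 25.9 and 30.3 in pEpiLC. The 3 states were fully apart. Cpt1a fell by 1.88 in aEpiLC (SE 0.164, adjusted p = 1.10e-06), rose by 1.05 in pEpiLC (SE 0.136, adjusted p = 0.00104) and was higher in pEpiLC than in aEpiLC by 2.91 (SE 0.152, adjusted p = 8.82e-05). Acadl and Hadha, which encode enzymes of mitochondrial fatty acid oxidation, rose in pEpiLC by 0.99 and 0.38, and Acadl rose in aEpiLC by 0.99. Acacb, the carboxylase whose product inhibits CPT1, had 29.0, 33.6 and 35.1 CPM in EpiLC, 20.4, 20.4 and 18.4 in aEpiLC and 13.4, 16.5 and 17.5 in pEpiLC, and fell by 0.74 and 1.05 in the later states.

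Of the acyl-CoA synthetases, which activate fatty acids, Acsl4 and Acsl3 passed in pEpiLC with changes near 2-fold. Acsl1 did not pass in any comparison (-0.32, 0.05 and 0.35), and Acsl5 fell in pEpiLC by 0.33. Acsl4, an acyl-CoA synthetase that prefers arachidonate, had 194, 176 and 207 CPM in EpiLC, 286, 282 and 258 in aEpiLC and 84.2, 127 and 106 in pEpiLC. It rose by 0.50 in aEpiLC and fell by 0.87 in pEpiLC, and pEpiLC was lower than aEpiLC by 1.39 (SE 0.136, adjusted p = 0.000915). Its relative Acsl3, singled out after its values were seen, rose by 0.99 in pEpiLC and was higher there than in aEpiLC by 0.86. Pnpla2, the lipase that starts the breakdown of stored triglyceride, had 29.8, 36.5 and 35.3 CPM in EpiLC, 26.0, 25.1 and 20.6 in aEpiLC and 9.63, 16.4 and 16.1 in pEpiLC, and fell by 1.27 in pEpiLC (SE 0.200, adjusted p = 0.00233). The desaturase relative Fads3, on the other side of Fads2 from Fads1, was low, with means of 1.07 ± 0.291 CPM in EpiLC, 3.72 ± 0.453 in aEpiLC and 1.55 ± 0.546 in pEpiLC (SD, n = 3). Fads3 rose by 1.77 in aEpiLC (SE 0.253, adjusted p = 8.16e-05), where Fads2 fell. It was lower in pEpiLC than in aEpiLC by 1.27 (SE 0.292, adjusted p = 0.0263), a call lost without pEpiLC replicate 2 or 3 or any 1 of the aEpiLC libraries. Scd3, also low at 1.64 ± 0.451 CPM in EpiLC and 0.707 ± 0.267 in aEpiLC, fell by 1.23 (SE 0.359, adjusted p = 0.0128), a call lost without EpiLC replicate 3.

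Of the genes of sterol handling, Lrp8, a receptor for lipoproteins that carry apolipoprotein E and for reelin, had 38.6, 43.1 and 42.1 CPM in EpiLC, 35.5, 30.3 and 27.6 in aEpiLC and 122, 81.7 and 86.2 in pEpiLC. It was highest in pEpiLC replicate 1. Lrp8 rose by 1.22 in pEpiLC against EpiLC (SE 0.154, adjusted p = 0.000949), or 1.02 without that library, and was higher than in aEpiLC by 1.63. Nr1h3, the oxysterol-sensing receptor LXRα, had 1.16, 0.791 and 0.914 CPM in EpiLC, 1.17, 1.09 and 0.736 in aEpiLC and 2.11, 2.15 and 2.51 in pEpiLC. It was low throughout and highest in pEpiLC. Nr1h3 rose by 1.23 in pEpiLC against EpiLC (SE 0.251, adjusted p = 0.00660) and was higher than in aEpiLC by 1.16 (SE 0.271, adjusted p = 0.0275), the latter call lost without pEpiLC replicate 2 or 3 or any 1 of the aEpiLC libraries. Its more abundant relative Nr1h2 had means of 83.4, 53.8 and 59.1 CPM in EpiLC, aEpiLC and pEpiLC. Nr1h2 fell by 0.65 in aEpiLC (adjusted p = 7.57e-06) and by 0.50 in pEpiLC (adjusted p = 0.00259), both against EpiLC. Scap, the SREBP escort, singled out after its values were seen because Srebf2 and Insig1 fell, had 37.8, 43.8 and 41.0 CPM in EpiLC, 63.2, 57.6 and 53.0 in aEpiLC and 82.1, 67.6 and 73.3 in pEpiLC. It rose by 0.49 in aEpiLC (SE 0.0814, adjusted p = 0.000291) and 0.86 in pEpiLC (SE 0.0967, adjusted p = 0.000633).

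**Figure D5:**
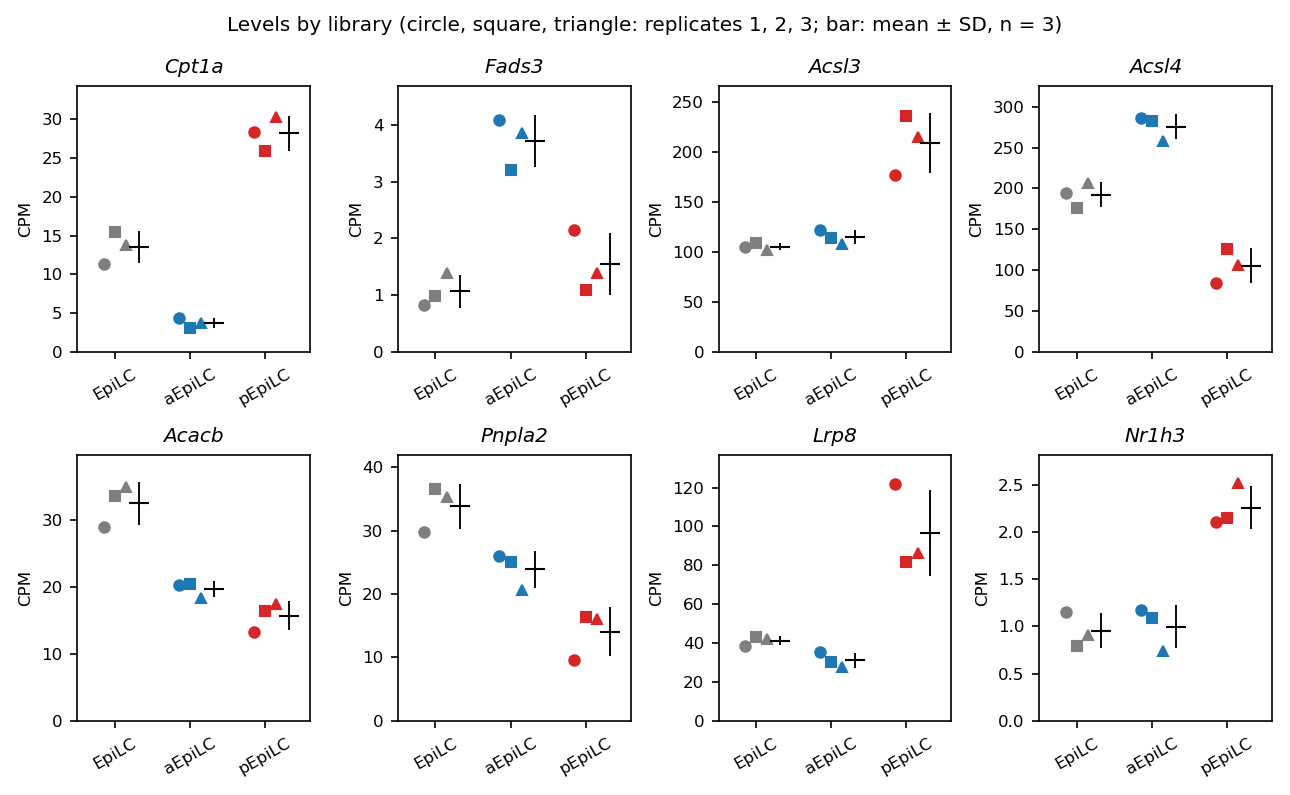
CPM in each library of 8 related genes, with circles, squares and triangles for replicates 1, 2 and 3 and a bar for the mean ± SD of 3 libraries. Cpt1a, Acsl3, Lrp8 and Nr1h3 are highest in pEpiLC, Fads3 and Acsl4 in aEpiLC, and Acacb and Pnpla2 in EpiLC.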

How the data were processed

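Read mapping was done by the authors on GRCm38, and the submitters' processing notes name STAR 2.7.9a and, for gene-level estimation, RSEM 1.3.1. The deposited values are these expected counts, without normalization, for 23453 symbols in 9 libraries. The gene annotation and the strandedness are not given in the sources used here. Expected counts were rounded to whole numbers. RSEM divides reads that map to more than 1 gene, and how far this touches Scd1, Scd2 and Acat2 was not tested.

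For each comparison only the 6 libraries of its states entered the fit, in R 4.3.3 with edgeR 4.0.16 (TMM, filterByExpr, glmQLFit and glmQLFTest), with Benjamini-Hochberg adjustment over all genes tested. CPM was TMM-scaled over the 9 libraries. Groups came from the sample titles. With 3 against 3 libraries an exact permutation test of 1 gene cannot go below 0.1 (two-sided), so none is given. GENCODE vM21 (GRCm38) gave positions and exon lengths, and each of the 30 members matched 1 gene. Alternatives were RLE scaling, DESeq2 1.42.0, edgeR's likelihood ratio test, limma 3.58.1 voom with quality weights, other filters on low counts, all 9 libraries in 1 fit, the replicate number as a block and leaving out each library. The fits were also run on counts simulated with the dispersions estimated from these data, which checks the code and not the model.

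The members and lists were chosen with earlier results of these data known. Full values are given for up to 5 sterol and 3 fatty acid members per comparison with the largest change among those that passed. Related genes are named where they passed with a 2-fold change (Acadl, Hadha, Acsl1, Acsl3, Acsl5, Nr1h2 and Scap, below it, were named after their values were seen). Promoters are those of the members with the smallest adjusted p, and 7 members had none in the table used. The result of 1 gene of the related pathway lists is not reported here.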

Additional observations from a re-analysis of the deposited data

How the results depend on the processing

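No member that passed changed sign under any alternative run. With RLE scaling, DESeq2, the likelihood ratio test, voom with quality weights and other filters, the counts of sterol and fatty acid genes that passed in either direction together stayed within 1.5 times those reported. With voom and quality weights, however, 5 fatty acid genes rather than 3 were lower in pEpiLC against EpiLC and the sterol median was -0.15 rather than -0.27, where 53.4% of all genes passed. Requiring a 2-fold change as well left 0 sterol and 0 fatty acid genes in aEpiLC against EpiLC, 1 and 0 in pEpiLC against EpiLC, and 1 and 0 in pEpiLC against aEpiLC. With all 9 libraries in 1 fit, 5 fatty acid genes passed in aEpiLC against EpiLC in place of 8. The cause was not tested. Leaving out 1 library at a time gave 7 to 11 sterol and 6 to 9 fatty acid genes in aEpiLC against EpiLC, 7 to 13 and 2 to 6 in pEpiLC against EpiLC, and 3 to 5 and 0 to 1 in pEpiLC against aEpiLC. The 7 and the 2 in pEpiLC against EpiLC came without EpiLC replicate 3, and the 0 without aEpiLC replicate 1 or 3. Same-numbered libraries did not deviate together in every pair (correlations of -0.06 to 0.17 over 15797 genes), so the numbers were not taken to pair them. With the replicate block, 9 sterol and 8 fatty acid genes passed in aEpiLC against EpiLC, 12 and 3 in pEpiLC against EpiLC, and 6 and 2 in pEpiLC against aEpiLC. Of the members' calls the block lost those of Mvd and Fasn in pEpiLC against EpiLC (adjusted p = 0.0552 and 0.0903). Depth did not limit the members, but Fads3, Scd3, Nr1h3 and Porcn rest on few counts.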
